A study of Mus musculus with 9 samples.

Results

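Ryanodine receptors and inositol 1,4,5-trisphosphate (IP3) receptors are the channels that release calcium from the sarcoplasmic and endoplasmic reticulum, and 3 genes of each family (Ryr1, Ryr2 and Ryr3, and Itpr1, Itpr2 and Itpr3) are described here as sources of extrachromosomal circular DNA (eccDNA) in the mouse heart. The members are the lines of the deposited eccDNA table whose gene name is one of these 6, and the unit is a distinct pair of a circle and a gene. There were 133 such pairs, of 68857 in the table, and each was a different circle, of 149584 listed. The 6 genes are among 14085 with at least 1 circle.

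Ryanodine receptors open when calcium enters the cell or, in skeletal muscle, when the voltage sensor of the membrane moves, and the calcium they release starts contraction. IP3 receptors open on binding IP3, the messenger that phospholipase C makes below many hormone receptors, and in heart muscle they are known for slower signals that reach the nucleus. A circle counted here is a piece of the gene's DNA found outside the chromosome, and it is no measure of the gene's transcript or channel.

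Circle-seq digests away linear DNA, amplifies what stays circular with phi29 polymerase and reads it by sequencing. DNA came from hearts of wild type C57BL/6J mice, with 3 libraries each at embryonic day 18 (E18), postnatal day 3 (3d) and 8 weeks (8w). The labels give heart as tissue, cardiocytes as cell type and no agent or allele in any group. DNA circles cannot be set against marker genes, so whether isolated cardiac muscle cells or whole hearts were used was not checked, and the sources used here do not say whether a library pooled animals. Libraries of 1 stage are labelled biological replicates.

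Libraries held 3931 to 42963 distinct circles from 11377 to 846374 split reads, the reads that span the junction of a circle. A library was taken to hold a circle from 1 split read upward. Library 8w replicate 1 was the shallowest, and 60.5% of its circles rested on a single read. The share was 37.9% in 3d replicate 1 and at most 16.7% in each of the other 7. Numbers of circles are therefore given per 10000 circles of the library.

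The 133 circles fell unevenly over the genes in number. Ryr3 held 42, Itpr2 held 32, Ryr2 held 27, Itpr1 held 21, Itpr3 held 6 and Ryr1 held 5. Ryr3, the widely expressed ryanodine receptor of low abundance, is also the longest of the 6 at 586 kb (chr2:112631355-113217096 on GRCm38/mm10, minus strand). Ryr2, the release channel of heart muscle, spans 554 kb (chr13:11553103-12106945, minus strand). Ryr1, the release channel of skeletal muscle, spans 122 kb (chr7:29003340-29125151, minus strand). Itpr2, the main IP3 receptor of cardiac muscle cells, spans 394 kb (chr6:146108299-146502223, minus strand). Itpr1, best known from cerebellar Purkinje neurons, spans 338 kb (chr6:108213118-108551109, plus strand). Itpr3, prominent in secretory epithelia, is the shortest at 64.9 kb (chr17:27057304-27122223, plus strand). The exon and intron position of the circles is not analysed here.

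Set against gene length, the 6 genes spread over the range of other long genes. Among 4941 RefSeq genes spanning 50 kb or more the median was 66.4 distinct circles per Mb, with quartiles at 50.3 and 83.0. Itpr3 had 92.0 circles per Mb, and 83.1% of these genes had fewer. Itpr2 had 81.2 and Ryr3 had 71.7, with 73.2% and 58.4% of genes lower. Itpr1 had 62.1, with 43.4% of genes lower. Ryr2 and Ryr1 were the sparsest, at 48.7 and 41.0 per Mb, with 23.03% and 16.3% of genes lower. The median of the 6 was 66.9 per Mb, close to that of all genes of this length. The places of Itpr3 and Ryr1 rest on 6 and 5 circles, and the counting error of these densities was not computed.

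**Figure D1:**
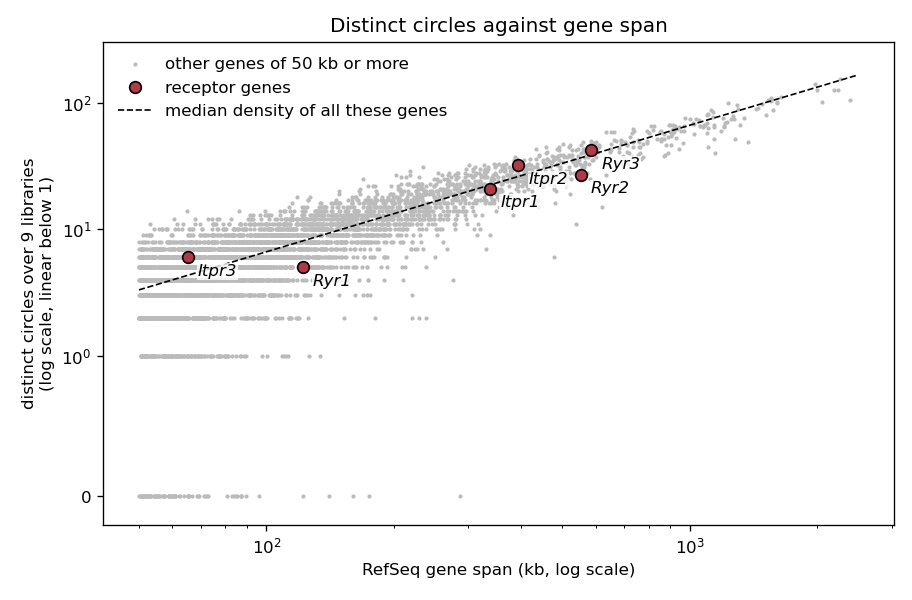
Distinct circles summed over 9 libraries (vertical axis, log scale that is linear below 1) against RefSeq gene span in kb (log scale) for 4941 genes of 50 kb or more, with the 6 receptor genes as large points. Ryr2 and Ryr1 sit below the dashed line of 66.4 circles per Mb and Itpr3 and Itpr2 above it, all inside the cloud of other genes.

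The same order by library had wide errors. Summed over the 9 libraries, a circle being counted once in each library that held it, the 6 genes gave 156 occurrences. Per 10000 circles and per Mb of gene, Itpr3 averaged 6.22 ± 7.63, Itpr2 4.25 ± 3.51, Ryr3 4.17 ± 3.30, Itpr1 3.84 ± 3.03, Ryr2 2.72 ± 1.36 and Ryr1 2.47 ± 2.45 (SD over 9 libraries). None of the 5 pairs of neighbours in that order differed beyond the spread of the libraries. The exact two-sided sign-flip permutation test over libraries gave a Benjamini-Hochberg adjusted p of 0.9375 for every pair, in a test chosen after the data were seen. Neighbours in a ranking by the tested values differ little by construction. Pairs farther apart were not tested, so the test cannot say whether the genes differ in density.

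Over the 3 stages, the 6 genes together held 21, 3 and 11 circles in E18 replicates 1 to 3, 30, 28 and 42 in those of 3d, and 0, 15 and 6 in those of 8w. Per 10000 circles these are 5.95, 3.32 and 10.5 at E18, 9.32, 10.5 and 9.78 at 3d, and 0, 10.2 and 9.03 at 8w. The stage means were 6.59 ± 3.63, 9.87 ± 0.5997 and 6.41 ± 5.58 (SD, n = 3 each). The 3d libraries lay close together, and the ranges of E18 and 8w overlapped them. The 0 of 3931 circles in 8w replicate 1 allows up to 7.63 per 10000, and without that library the 8w mean was 9.61. Without 3d replicate 1 the 3d mean was 10.1.

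Ryr2 was found in 8 of the 9 libraries, more than any other of the 6 genes. It had 5, 1 and 3 circles in the E18 libraries, 5, 5 and 8 in the 3d libraries and 0, 2 and 1 in the 8w libraries. Per 10000 circles that is 1.42, 1.11 and 2.86 at E18, 1.55, 1.88 and 1.86 at 3d, and 0, 1.36 and 1.505 at 8w. Every 8w library lay below every 3d library, and E18 overlapped both. A floor of 3 counts is 7.63, 2.04 and 4.51 per 10000 in the 8w libraries, above every 3d value. The 8w values lie under it, so this order is not resolved at this depth. Across the 2174 genes tested, 16.7% had all 8w libraries below all 3d libraries, so that the 2 of 5 tested receptor genes with this order, Ryr2 and Itpr3, are read against that share. Itpr3 reached the minimum of 10 circles for the test only through its 3d circles, so its order is no support. The log2 change of Ryr2 for 8w over 3d was -0.55 (SE 0.87, edgeR adjusted p = 0.930), and without 8w replicate 1 it was -0.32. The ratio of pooled rates, 8w over 3d, was 0.671 with an exact binomial 95% interval of 0.127 to 2.30, which covers counting error only.

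Ryr3 had 6, 0 and 6 circles in the E18 libraries, 8, 8 and 12 in the 3d libraries and 0, 7 and 1 in the 8w libraries. Per 10000 circles that is 1.70, 0 and 5.72 at E18, 2.48, 3.00 and 2.79 at 3d, and 0, 4.76 and 1.505 at 8w. The 3d libraries agreed within a narrow band, while E18 and 8w libraries fell on both sides of it. For 3d over E18 its log2 change was 0.32 (SE 0.49), and when 8w was set over 3d it was 0.20 (SE 0.59), with edgeR adjusted p-values of 0.967 and 0.955. Scaling by TMM, which also shifts the median gene, turned the change of 8w over 3d to -0.46. At 8w, 1 library decided the sign, since without 8w replicate 2 the log2 change for 8w over 3d was -1.48 and that for 8w over E18 was -1.16, against 0.52 with it.

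Ryr1 had 2, 0 and 0 circles in the E18 libraries, 2, 1 and 2 in the 3d libraries and 0, 1 and 0 in the 8w libraries. Its 8 occurrences were under the minimum of 10 for the test. The ratio of pooled rates was 1.35 for 3d over E18, with an exact 95% interval of 0.220 to 14.1, and 0.805 for 8w over 3d, with an interval of 0.0170 to 7.19. Neither interval leaves out equal rates or a several-fold difference either way.

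Itpr2 had 5, 0 and 0 circles in the E18 libraries, 9, 5 and 11 in the 3d libraries and 0, 5 and 2 in the 8w libraries. Per 10000 circles that is 1.42, 0 and 0 at E18, 2.80, 1.88 and 2.56 at 3d, and 0, 3.40 and 3.01 at 8w. Every 3d library lay above every E18 library, which also held for 7.77% of the 2174 genes tested. It was the only 1 of the 5 tested receptor genes with that order. The log2 change for 3d over E18 was 1.37 (SE 0.64), with an unadjusted p of 0.0321 and an adjusted p of 0.967 in edgeR, so it did not pass. An unadjusted p under 0.05 was reached by 4.51% of genes tested. The ratio of pooled rates was 2.69, 3d over E18, with an exact 95% interval of 1.01 to 9.002 for counting error alone. All 5 E18 circles came from E18 replicate 1, the deepest library, and without it E18 held no Itpr2 circle and gives no fold. For 8w over E18 the log2 change was 1.54 (SE 0.84, edgeR adjusted p = 0.738).

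Itpr1 had 3, 2 and 1 circles in the E18 libraries, 4, 6 and 5 in the 3d libraries and 0, 0 and 2 in the 8w libraries. Per 10000 circles that is 0.851, 2.21 and 0.954 at E18, 1.24, 2.25 and 1.16 at 3d, and 0, 0 and 3.01 at 8w. All its adult circles came from 8w replicate 3, whose rate is above that of any other library. Itpr1 reached the minimum for the test only through its 3d circles, so its differences from 3d are a description. The log2 change was 0.41 (SE 0.70) for 3d over E18 and -0.85 (SE 1.02) for 8w over 3d. The edgeR adjusted p-values were 0.967 and 0.930. Without 8w replicate 2, which held none, the change for 8w over 3d was 0.35, and that for 8w over E18 was 0.76, against -0.44 with it.

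Itpr3 had 0, 0 and 1 circles in the E18 libraries, 2, 3 and 4 in the 3d libraries and none in the 8w libraries. Its 10 occurrences were just the minimum for the test, and 9 of them were at 3d. It was tested only through the stage where it was high, so its differences from 3d are a description. Per 10000 circles the 3d libraries held 0.621, 1.13 and 0.931. E18 replicate 3, with 0.954, lay within that range. The ratio of pooled rates, 3d over E18, was 4.84 with an exact 95% interval of 0.671 to 212, and the log2 change of 1.95 (SE 1.15) had an edgeR adjusted p of 0.967. Without E18 replicate 1 that log2 change was 0.71. For 8w over 3d the edgeR adjusted p was 0.692. The 0 of 25297 circles at 8w allows up to 1.19 per 10000 at the floor of 3 counts, above the 0.884 per 10000 of the pooled 3d libraries. A lower rate at 8w was therefore not detectable at this depth.

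**Figure D2:**
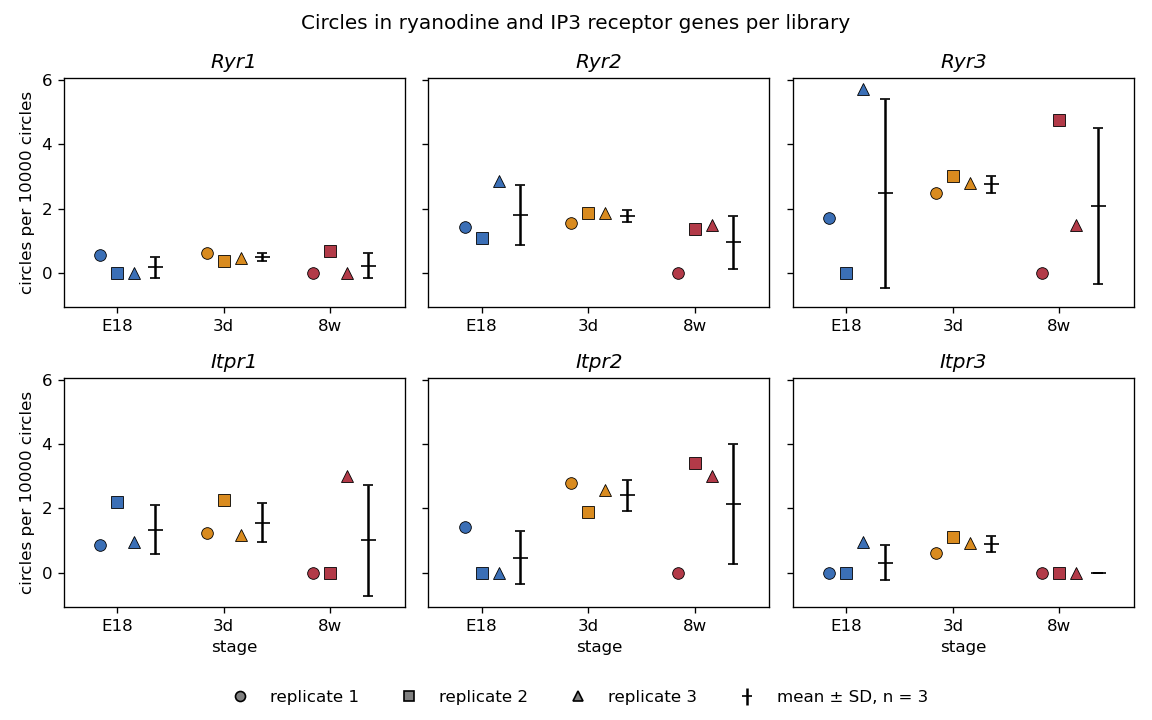
Circles in each receptor gene per 10000 circles of the library (vertical axis) at E18, 3d and 8w, with 1 point per library, its shape giving the replicate number, and the mean ± SD of 3 libraries beside them. Itpr2 has every 3d library above every E18 library, and 8w replicate 1 is at 0 in all 6 panels.

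None of the 5 tested receptor genes passed in any comparison of stages. Without 8w replicate 1 the log2 changes of 8w over 3d were 0.44 for Ryr3, -0.62 for Itpr1 and 0.41 for Itpr2, and for 8w over E18 that of Itpr2 was 1.78. Without 3d replicate 1 the log2 changes of 3d over E18 were 0.18 for Ryr2, 0.38 for Ryr3, 0.50 for Itpr1 and 1.27 for Itpr2, and Itpr3 was under the minimum for the test. None of these passed in edgeR either. The background was as empty, with 0 of 2174 genes called (0%) by edgeR in each of the 3 comparisons, at an adjusted p under 0.05. At an unadjusted p under 0.05 edgeR gave 98 genes between 3d and E18, 100 between 8w and 3d (4.6%) and 139 between 8w and E18 (6.39%). DESeq2 called 0 genes as well, with 15, 81 and 55 at an unadjusted p under 0.05. None of the 5 had all 3d libraries below all E18 libraries (4.69% of genes tested) or all 8w libraries above those of 3d (2.62%), and none was separated between 8w and E18 (2.58% of genes higher and 6.81% lower). The median log2 change over all genes tested was 0.10, -0.26 and -0.19 in that order of comparisons.

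Taken by family, the 3 IP3 receptor genes had 2.268, 2.21 and 1.91 circles per 10000 in the E18 libraries, 4.66, 5.25 and 4.66 in the 3d libraries and 0, 3.40 and 6.02 in the 8w libraries. Their 3d and E18 libraries did not overlap, with means of 4.86 ± 0.344 at 3d and 2.13 ± 0.194 at E18 (SD, n = 3 each). The E18 values rest on 8, 2 and 2 circles, and 5 of the 8 in E18 replicate 1 were in Itpr2. The 3 ryanodine receptor genes had 3.69, 1.11 and 8.58 per 10000 at E18, 4.66, 5.25 and 5.12 at 3d, and 0, 6.79 and 3.01 at 8w. There the 3d values fell within the E18 range. These sums over a chosen family are a description and were not tested. Of single genes, 7.77% had every 3d library above every E18 library, and the share among other sums of 3 genes was not computed.

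Receptor circles were shorter in the adult libraries than at the earlier stages, and so were circles of the whole table. Occurrences in the 6 genes had a median length of 380 bp in both E18 and 3d libraries and 150 bp in 8w libraries, against 369, 382 and 132 bp over all circles of the 3 stages. By library, E18 medians were 380, 199 and 384 bp. Those of 3d were 378, 357 and 400 bp, and 159 and 127.5 bp were found in the 2 adult libraries with receptor circles. Both adult libraries lay below all 6 of the others, a difference that was not tested. The 199 bp of E18 replicate 2 rests on 3 circles. Under 250 bp were 6 of 35 occurrences at E18 (17.1%), 14 of 100 at 3d (14%) and 19 of 21 at 8w (90.5%). The exact binomial 95% intervals were 6.56% to 33.6%, 7.87% to 22.4% and 69.6% to 98.8%, for counting error only. Over all circles the shares were 22.1%, 16.1% and 80.9%. The adult libraries differed in this, since in 8w replicate 1, which held no receptor circle, the median over all circles was 331 bp and 46.0% were under 250 bp. In 8w replicates 2 and 3 the shares over all circles were 89.2% and 83.4%, and pooled without 8w replicate 1 the adult median was 125 bp with 87.4% under 250 bp.

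Receptor circles of 250 bp or more in adult hearts came down to 2, both in Itpr2 and both with a single adult read. One, of 375 bp (chr6:146415026-146415400), had 1 read in 8w replicate 3 and 14 in 3d replicate 2. The other, of 400 bp (chr6:146400746-146401145), had 1 read in 8w replicate 2 and 8 in 3d replicate 2. Among adult occurrences with at least 2 reads, all 17 were of 55 to 217 bp. The shortest, 55 bp, lies in Ryr3 (chr2:113144032-113144086) and had 15 reads in 8w replicate 3.

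**Figure D3:**
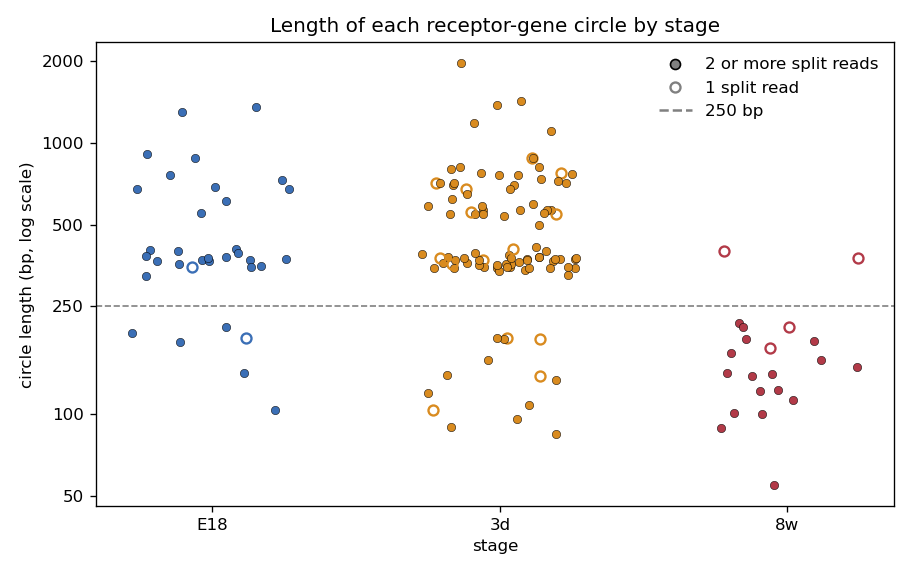
Length in bp (log scale) of each circle in the 6 receptor genes in each library that held it, by stage, leaving out the 1 circle over 100 kb, with open symbols for circles seen by 1 split read. Most points of E18 and 3d lie above the dashed line at 250 bp, and 19 of the 21 points of 8w lie below it.

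Along the genes the circles were scattered. Among circles below 100 kb none overlapped its neighbour within a gene. They took up 1.58% of Ryr1, 2.38% of Ryr2, 3.27% of Ryr3, 2.78% of Itpr1, 3.35% of Itpr2 and 4.48% of Itpr3. Counted from the first base of each gene in 5 equal parts, 25, 32, 32, 20 and 23 of the 132 circles below 100 kb had their centre in each part. The widest stretch without a circle was 74.2 kb in Ryr2 (chr13:11666258-11740410). Neighbours came within 1 kb of each other 10 times, 4 of them in Ryr3. The closest were 129 bp apart in Ryr3, a circle of 190 bp (chr2:112750139-112750328) in 3d replicate 1 and 8w replicate 2 and a circle of 392 bp (chr2:112750458-112750849) in E18 replicate 3. Itpr3 alone had such a pair in the same library, 3d replicate 3, at 642 bp apart.

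No circle below 100 kb overlapped the first base of any of the 6 genes or had its centre in the first 2 kb of the gene. Circles lying wholly upstream of a gene are not among the members and were not examined. The first 2 kb of the 6 genes are 12 kb in all, which would hold 0.775 circles at the 64.6 circles per Mb of these genes, so that 0 is near what length alone gives. The nearest centre was 3.77 kb away in Itpr2, 8.57 kb in Ryr3, 8.73 kb in Ryr2, 10.9 kb in Itpr1, 18.7 kb in Itpr3 and 35.9 kb in Ryr1. Circles below 100 kb over annotated long noncoding RNA genes of RefSeq numbered 7, with 2 in Itpr1 and 5 in Itpr2.

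**Figure D4:**
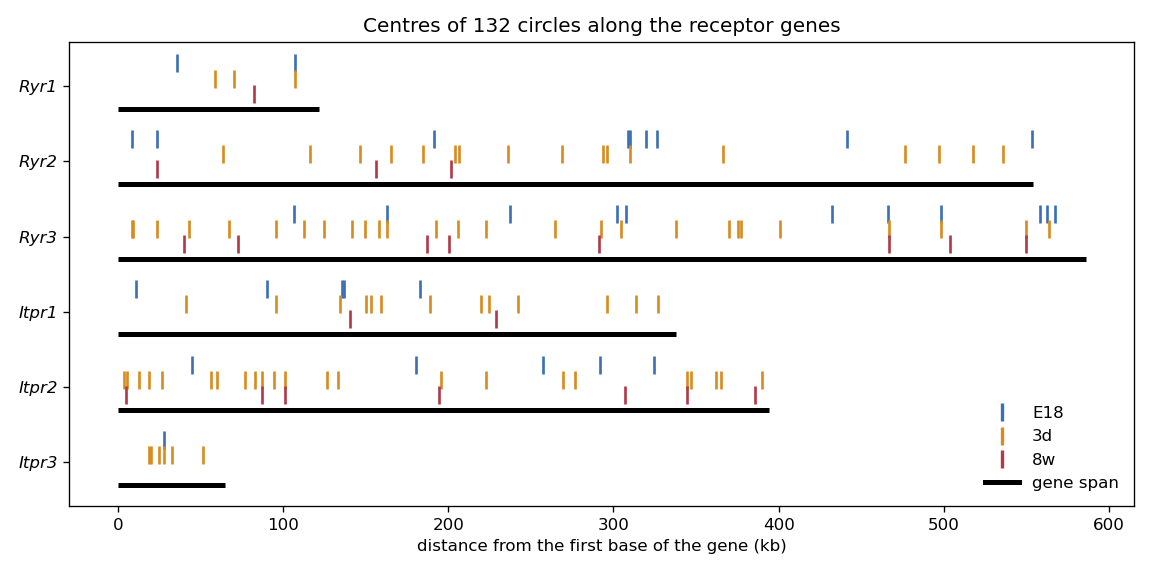
Centres of the 132 circles below 100 kb along the 6 receptor genes, as distance in kb from the first base of the gene, with a row of marks for each stage above the black bar of the gene span. Marks of E18, 3d and 8w are spread over the length of the genes, with none at the first bases.

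One circle call stood apart in size. It covers all of Itpr1 with 1854003 bp (chr6:106763332-108617334) and had 25 split reads in E18 replicate 1 and 2 in 3d replicate 1. The table holds 79 circles over 100 kb, and the other 132 circles of the receptor genes were of 55 to 1957 bp. The call also covers all or part of the deposited gene spans of Trnt1, Crbn, Lrrn1, Setmar and Sumf1. Split reads give the junction of such a call, and whether the whole stretch was circular was not tested. The call is also the only circle here over a mature microRNA that RefSeq places within these genes, and that pair is shown because no smaller receptor circle overlaps a listed microRNA. It is printed from RefSeq (GRCm38.p6), 5′ to 3′, with the seed (bases 2 to 8) in capitals, for plus-strand positions chr6:108489743-108489767 and chr6:108489782-108489803.
mmu-miR-7661-5p: aAGAAAGAaaccuggaguuuaaagu
mmu-miR-7661-3p: uUGACUCCcaguuucucucugc

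Without that call, the circle nearest to the microRNA pair in Itpr1 lies 19188 bp away. The 2 arms have different seeds. The other microRNAs listed within the genes, miR-1963 in Ryr1 and miR-7677-5p in Itpr3, lie 5333 and 516 bp from the nearest circle.

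Circles with the most reads included both unshared and shared ones. In Ryr2 a circle of 346 bp (chr13:11990666-11991011) had 134 split reads in 3d replicate 1 and was in no other library. Ryr2 also held a circle of 811 bp (chr13:11609492-11610302) with 119 reads in 3d replicate 3 only, and its longest, 1350 bp (chr13:11664908-11666257), with 92 reads in E18 replicate 3 only. In Ryr3 the circle with the most reads was one of 726 bp (chr2:112649363-112650088), with 96 reads in E18 replicate 3 only. The longest circle of Ryr3, at 1957 bp (chr2:113010092-113012048), had 5 reads in 3d replicate 3. In Itpr1 a circle of 697 bp (chr6:108308515-108309211) had 111 reads in 3d replicate 1 and 3 in 3d replicate 3. In Itpr2 the highest was 50 reads, for a circle of 369 bp (chr6:146210298-146210666) in E18 replicate 1, and the longest, 1380 bp (chr6:146424553-146425932), had 14 reads in 3d replicate 3. Over the 156 occurrences the median was 8 split reads, as over all circles, and 12.8% rested on 1 read against 15.2% over all circles. Reads after phi29 amplification are not independent molecules, so read numbers are no copy numbers.

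Few circles recurred. Of the 133, 113 were in 1 library (85.0%), 17 in 2 and 3 in 3, against 80.6% of all circles in 1 library. The 3 in most libraries were the following. In Ryr1 a circle of 546 bp (chr7:29066154-29066699), the longest of that gene, had 1, 17 and 17 reads in 3d replicates 1 to 3. In Itpr2 one of 565 bp (chr6:146225402-146225966) had 2, 2 and 8 reads in the 3d replicates, and it overlaps the long noncoding RNA gene Gm35596. In Ryr3 one of 191 bp (chr2:113054157-113054347) had 1 read in E18 replicate 3, 1 in 3d replicate 2 and 6 in 3d replicate 3. Of the 6 genes, Itpr3 had the smallest share of circles in a single library, 2 of 6. Its circle of 587 bp (chr17:27076865-27077451) had 3 reads in 3d replicate 2 and 98 in 3d replicate 3. Its longest, 772 bp (chr17:27089958-27090729), had 1 read in 3d replicate 1 and 25 in 3d replicate 3.

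Sharing rested largely on single reads. Of the 20 circles in more than 1 library, 15 had a single read in at least 1 of them, and 6 had at least 2 reads in 2 or more libraries. Library 3d replicate 1 held 12 of the 20 (60%), 8 of them by 1 read, and it held 63.7% of all shared circles in the table. In Ryr1, a circle of 370 bp (chr7:29017883-29018252) had 82 reads in E18 replicate 1 and 1 read in 3d replicate 1. In Ryr2, a circle of 875 bp (chr13:11796675-11797549) had 104 reads in E18 replicate 1 and 1 in 3d replicate 1. The source of such single reads was not tested. Circles in libraries of 2 stages numbered 12, none was in all 3 stages, and 8 were shared within 1 stage. With at least 5 reads required in each library, 1 of 106 circles was in 2 libraries (0.943%), against 1.77% of all circles. Without 3d replicate 1, a setting chosen after seeing the data, 10 of 115 receptor circles were in more than 1 library and 91.3% were in 1, against 90.6% of all circles.

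Other genes that regulate calcium release were counted in the same fit. Of 71 genes listed (calmodulins, calsequestrins, junctophilins, calcium pumps and exchangers, phospholipases C, the receptors and G proteins above them and others), 60 had a circle and 22 were tested. No gene of the list passed in either direction in any comparison in edgeR. At an unadjusted p under 0.05 there were 2 higher and 0 lower at 3d than at E18, 0 and 1 at 8w against 3d, and 1 and 1 at 8w against E18. Over all genes tested the shares at that level were 4.51%, 4.6% and 6.39%, and 1 or 2 genes of 22 are no result about the list against these. They are named here after their values were seen. Stac, a binding partner of voltage-gated calcium channels, and Adra1b, an adrenergic receptor that signals through phospholipase C, each had 10 circles at 3d and 0 at E18, and Adra1b had 2 at 8w. Slc8a1, the sodium-calcium exchanger, had 0 circles at 8w, against 16 at 3d and 6 at E18. Each of these genes reached the minimum of 10 circles for the test only through its 3d circles. Their being high at 3d is therefore a description only. The median log2 change over the 22 was 0.19, -0.28 and -0.24, against 0.10, -0.26 and -0.19 over all genes tested.

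The 3 genes of that list with the most circles were Pde4d, Plcb1 and Akap6. Pde4d, a cyclic AMP phosphodiesterase, had 37 E18 circles, 60 of 3d and 19 of 8w, a mean of 6.60, 5.93 and 6.30 per 10000. Plcb1, a phospholipase C that makes IP3, had 59 circles in all, and its log2 change for 3d over E18 was -0.18 (SE 0.42, edgeR adjusted p = 0.967). Akap6, a scaffold that holds protein kinase A at the ryanodine receptor in heart muscle, had 44 circles in all, with a log2 change of 0.52 (SE 0.52, edgeR adjusted p = 0.967) for 3d over E18.

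Over the 9 libraries, the genes whose circles per 10000 were most like those of Ryr3, the member with the most circles, were Aox3 (Pearson r = 0.955), Itga2 (r = 0.953) and Rps6ka3 (r = 0.949), of 2174 genes ranked. They rest on 11, 11 and 14 circles. The points share library and depth, and all 4 genes were at 0 in E18 replicate 2 and 8w replicate 1, so this likeness is a description only.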

How the data were processed

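The members and gene lists were chosen with earlier results of these data known. Per the file headers, the authors found eccDNAs with Circle-Map (version not given in the sources used here) and deposited counts of split reads per circle and library. The log2 values, also deposited by the authors after edgeR normalization, were not used for tests. Tools named in the submitters' processing notes are BWA 0.7.12, bedtools 2.27.1, SAMtools 1.9 and cutadapt 1.9.1, and the build is GRCm38/mm10. The deposited circle starts count from 0 and are printed counting from 1.

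The number of distinct circles overlapping each gene was tested in edgeR 4.0.16 (R 4.3.3, quasi-likelihood) in 1 fit of 9 libraries, with stage as the only term, all circles of the library as library size and at least 10 circles over the libraries (2174 genes). P-values were adjusted by Benjamini-Hochberg over these genes, at 0.05. That filter left out Ryr1. Scaling by total circles was used because TMM moved the median gene. Alternatives were TMM, DESeq2 1.42.0, other minimums of circles and reads, thinning to 11377 split reads, other definitions of overlap, a replicate block and leaving out each library. The script was tested on simulated data. Intervals are exact at 95%, and a floor is 3 counts. Circles named per gene are those in the most libraries, with the most reads and the longest, and others chosen after their values were seen. Replicate numbers were not taken as pairs of libraries. Scripts ran on Python 3.11.15 with SciPy 1.17.1, pandas 2.3.3, NumPy 2.4.6 and matplotlib 3.10.9.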

Additional observations from a re-analysis of the deposited data

How the results depend on the processing

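No receptor gene passed in any comparison under any of the 306 alternative values, with adjusted p from 0.335 to 1. The log2 changes kept their sign in 241 of 261 alternatives with a value. The exceptions had these values, with no cause tested. For 8w over 3d, Ryr3 was -0.46 with TMM, -0.43 with DESeq2 and -0.45 on split reads, and Itpr2 was -0.48 with TMM, -0.43 with DESeq2, -0.57 and -0.071 with at least 2 and 5 reads per circle, and -0.28 on split reads. For 8w over E18, Ryr3 was -0.48 on split reads. For 3d over E18, Ryr3 was -0.035 on split reads and Ryr2 was -0.044 with at least 5 reads. TMM moved the median of all genes to 0.28 when 3d was set over E18, -0.85 when 8w was set over 3d and -0.62 when 8w was set over E18. Changes of Itpr3 at 8w, and 10 alternatives with no circle at 1 stage, give no value.

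Leaving out each library gave, for 3d over E18, ranges of -0.21 to 0.37 for Ryr2, -0.16 to 0.99 for Ryr3 and -0.058 to 0.72 for Itpr1. For 8w over 3d the ranges were -1.48 to 0.44 for Ryr3, -1.04 to 0.35 for Itpr1 and -0.37 to 0.41 for Itpr2, and for 8w over E18 they were -1.16 to 1.19 for Ryr3 and -0.90 to 0.76 for Itpr1. The median length at 8w ran from 127.5 to 159 bp.

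The genes called by edgeR numbered 0 except on split reads, where 3 passed for 3d over E18 (Tnpo1, Dhx40 and Wdr44), 1 (Wdr44) when 8w was set over 3d and 2 (Dhx40 and Wdr44) when it was set over E18, and with at least 20 circles, where 1 of 779 passed for 8w over 3d (Thsd7b). None is a receptor gene. At 3d the 6 genes had 10.5 circles per 10000 with at least 5 reads. Weighted by split reads, they had 11.7 split reads per 10000 split reads of the library. The median length was 686 bp at E18 and 546 bp at 3d when weighted by reads, and 456.5 bp at 3d and 387.5 bp at 8w among circles of 250 bp or more. That last 8w value rests on 2 occurrences with a single adult read each, against 86 occurrences at 3d.

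Same-numbered libraries correlated at -0.0362 to 0.00331, so the numbers were not taken as pairs. With the replicate as a block edgeR called 0 genes, with 55, 75 and 78 at an unadjusted p under 0.05, and Ryr2 for 3d over E18 was -0.050.

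Depth limits these values most at 8w, where 25297 circles over 3 libraries held 21 receptor circles, so that for Ryr1, Ryr2 and Itpr1 the exact intervals of 8w over 3d span several-fold differences.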
